A study of Homo sapiens with 16 samples.

Results

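The 10 genes described here are HIF1A, EPAS1, CA9, EGLN3, NDRG1, BNIP3, BNIP3L, ADM, KDM3A and ANKRD37, parts and known targets of the response to low oxygen that lie outside glycolysis. They were taken by symbol from a table of 26475 gene symbols, and all 10 were in it. Poly-A RNA was measured in 16 libraries of A375 MA2-Luc cells, an established human melanoma line that carries an activating BRAF mutation, taken as lung metastases from NSG mice, a strain without functional lymphocytes or natural killer cells. The mice had received 250000 cells by the retro-orbital route and were fed a high fat or a ketogenic diet, and on each diet they had either no inhibitors or an inhibitor of the BRAF kinase together with one of MEK 1/2, by oral gavage 3 times a week for 5 weeks. The 4 groups held 4 libraries each. The labels give no drug names or doses, do not say whether mice without inhibitors were gavaged with vehicle, and do not tie each library to its own mouse, so p-values here measure the spread between these libraries. A step of culture between lung and extraction cannot be settled from the labels, because the design text mentions cultured cells too.

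HIF1A and EPAS1 encode the oxygen-labile alpha subunits HIF-1 alpha and HIF-2 alpha of the hypoxia-inducible factors. When oxygen is plentiful, prolyl hydroxylases such as EGLN3 mark the alpha subunits for destruction by the VHL ubiquitin ligase. When oxygen falls, the subunits persist, pair with ARNT and bind a short DNA core in the promoters and enhancers of their targets. This control acts mainly on the protein, so an alpha subunit's mRNA level is not a measure of its activity. In melanoma, HIF-1 is also known to respond to signalling through BRAF. Among the targets, CA9 is a cell surface carbonic anhydrase, NDRG1 a stress-responsive protein studied in metastasis, BNIP3 and BNIP3L mitochondrial receptors for mitophagy, ADM a secreted vasodilator peptide, KDM3A a histone H3 lysine demethylase and ANKRD37 a small ankyrin repeat protein.

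The 4 promoters shown here belong to targets that behaved differently from one another below: ADM, called in 1 comparison, CA9, near the counting floor in most libraries, and BNIP3 and ANKRD37, above the counting floor in every library but not called by edgeR. Each is the 250 bases before the gene's RefSeq start (GRCh38.p14), read 5′ to 3′ on the gene's strand, and capitals mark every match to ACGTG or GCGTG, the core of the hypoxia response element, on either strand (on the opposite strand they read CACGT or CACGC). The windows are chr11:10304823-10305072 (plus strand) for ADM, chr9:35673678-35673927 (plus strand) for CA9, chr10:131981924-131982173 (minus strand) for BNIP3 and chr4:185396591-185396840 (plus strand) for ANKRD37.
ADM: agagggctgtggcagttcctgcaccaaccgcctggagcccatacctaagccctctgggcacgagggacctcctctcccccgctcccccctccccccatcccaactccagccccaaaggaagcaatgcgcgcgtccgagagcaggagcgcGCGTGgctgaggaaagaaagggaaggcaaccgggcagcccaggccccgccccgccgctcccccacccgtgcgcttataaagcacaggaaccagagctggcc
CA9: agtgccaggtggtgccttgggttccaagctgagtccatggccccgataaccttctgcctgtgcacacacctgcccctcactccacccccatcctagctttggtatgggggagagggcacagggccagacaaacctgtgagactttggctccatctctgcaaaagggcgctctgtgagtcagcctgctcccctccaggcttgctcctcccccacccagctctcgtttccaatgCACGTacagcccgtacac
BNIP3: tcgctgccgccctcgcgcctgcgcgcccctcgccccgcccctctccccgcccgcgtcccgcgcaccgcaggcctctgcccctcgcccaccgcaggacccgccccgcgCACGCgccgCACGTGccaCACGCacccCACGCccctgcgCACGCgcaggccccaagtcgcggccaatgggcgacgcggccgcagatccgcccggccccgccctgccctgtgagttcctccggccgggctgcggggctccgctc
ANKRD37: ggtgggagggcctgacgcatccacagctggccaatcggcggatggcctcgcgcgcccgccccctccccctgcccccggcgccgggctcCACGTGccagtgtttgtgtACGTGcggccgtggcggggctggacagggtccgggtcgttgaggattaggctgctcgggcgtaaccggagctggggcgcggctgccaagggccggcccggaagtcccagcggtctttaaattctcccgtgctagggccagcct
The ADM window held 1 GCGTG, 101 to 97 bases before the start. CA9 had 1 ACGTG on the opposite strand, 18 to 14 bases before the start. In BNIP3 there were 6 matches, 2 ACGTG and 4 GCGTG, and the 2 ACGTG overlap in a single CACGTG, a palindrome that reads as ACGTG on both strands. ANKRD37 had 3 ACGTG matches, 2 of them in a single CACGTG. Of the 10 genes, 8 matched the RefSeq promoter table and 7 of these had a match in at least 1 promoter, EGLN3 being the one without; NDRG1 and BNIP3L were not matched. Over all 35116 promoters of the table, 43.2% held either core and 18.5% held ACGTG, so a match is common and describes these letters only.

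The libraries held 37.1 to 77.3 M estimated counts (M, mega). Ribosomal RNA took 21.7 to 50.0% of them on the high fat diet without inhibitors, 15.01 to 19.97% with inhibitors, 15.2 to 33.7% on the ketogenic diet without inhibitors and 4.10 to 8.37% with inhibitors, and 3 libraries lay above 30% (replicates 2 and 3 of the high fat and replicate 2 of the ketogenic group, all without inhibitors). All 14 melanoma markers passed the filter, led by CSPG4 at a mean of 1626 CPM (counts scaled to the size of the library). Summed endothelial markers ran from 18.2 to 38.3 CPM in high fat libraries without inhibitors and from 74.97 to 84.3 CPM with them, and 7 of the 10 passed the filter. KDR made up most of this sum (15.4 to 34.4 and 70.3 to 81.3 CPM), while CDH5, which defines endothelium, had 0 counts in the former group and 4 in the latter. Summed leukocyte markers lay between 0.840 and 1.95 CPM and between 6.70 and 8.58 CPM in the same groups, led by CORO1A, with MS4A1 at 0 in every library. Summed fibroblast markers, led by FBLN1, lay between 71.3 and 98.5 CPM without and between 43.3 and 70.1 CPM with inhibitors on this diet, and AGER, the 1 lung epithelial marker of 10 that passed the filter, fell from 2.39 to 1.18 CPM (log2 -1.02, SE 0.21). Summed markers of macrophages and neutrophils overlapped (61.03 to 78.8 and 49.5 to 65.5 CPM). Fibroblast markers went both ways there: of the 9 tested, edgeR called 1 higher and 2 lower, where 42.3% of all genes were called. Their median log2 change was 0.33, against -0.03 over all genes, so the fall of the sum is not that of its typical marker. On the high fat diet the endothelial, leukocyte and fibroblast sums, like the ribosomal share, thus moved with the inhibitors. On the ketogenic diet each of these sums overlapped between libraries without and with inhibitors (29.4 to 40.5 and 30.2 to 50.2 CPM for endothelium). Their part in the results below was not tested. The line is human and the hosts are mice, so these human symbols are not a measure of host cells. Mouse reads could have added to them, which was not tested. A change in RNA per cell and one in the number of cells cannot be told apart in such bulk samples either.

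Per kilobase of transcript, the 10 genes covered a wide range. Mean CPM per kilobase over the 16 libraries was 50.4 for HIF1A, 35.7 for NDRG1, 19.0 for BNIP3, 13.02 for BNIP3L, 11.1 for KDM3A, 3.84 for ANKRD37, 3.00 for ADM, 2.50 for EPAS1, 0.394 for CA9 and 0.0285 for EGLN3. HIF1A thus led the group, and its paralogue EPAS1 was far below it on the same scale. Lengths are those of the GENCODE 29 principal transcripts. Neighbours such as ANKRD37, ADM and EPAS1 changed places between groups: on the high fat diet with inhibitors ADM stood at 4.60 and ANKRD37 at 4.11 CPM per kilobase, while on the ketogenic diet without inhibitors ADM stood at 2.21 and ANKRD37 at 4.13.

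**Figure D1:**
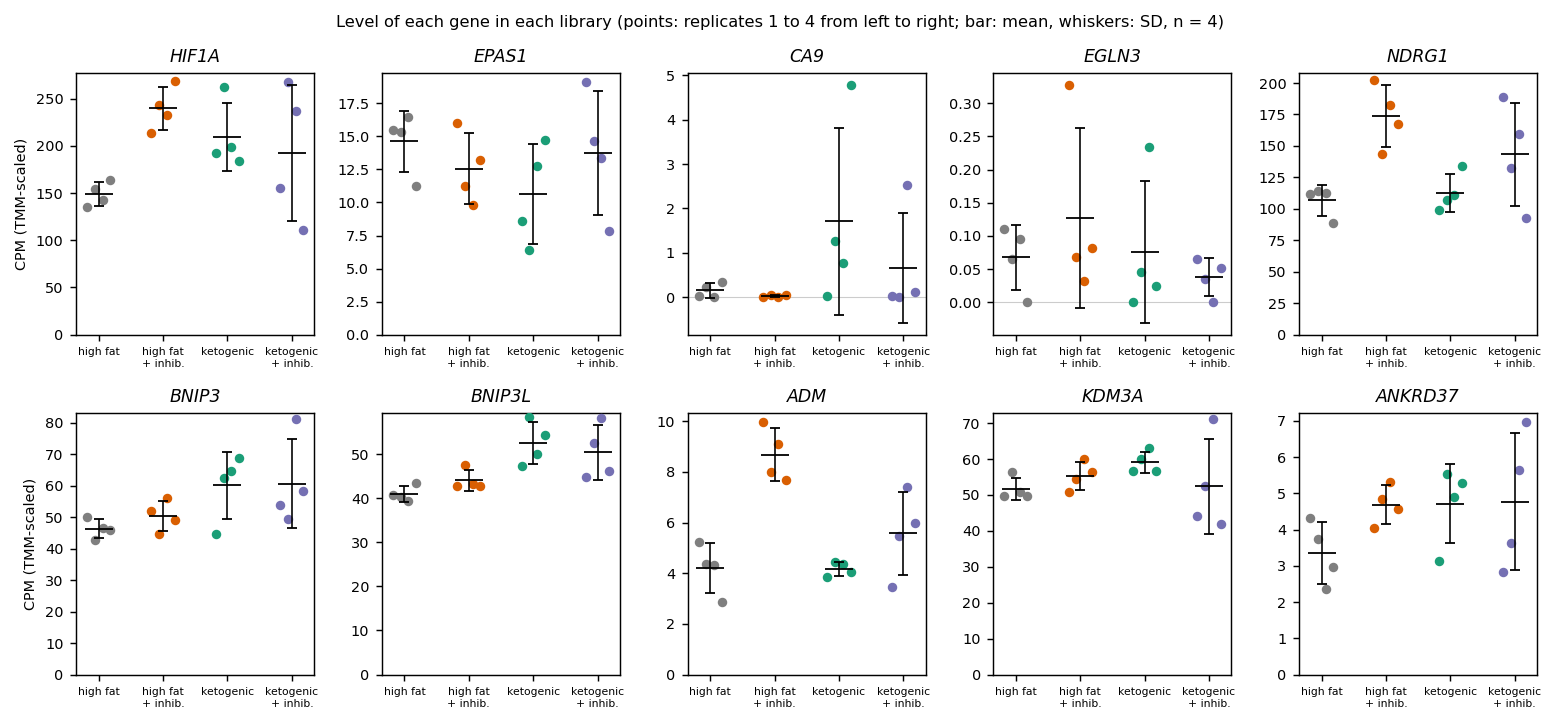
Level of each of the 10 genes in CPM on TMM-scaled library sizes (vertical axis, linear, each panel with its own scale) in the 4 groups; points are single libraries, and bars give the mean and SD of 4. HIF1A, NDRG1 and ADM lie higher in the 4 high fat libraries with inhibitors than in the 4 without, and CA9 and EGLN3 lie near 0 in most libraries.

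The first comparison asks which of these genes changed with the inhibitors on the high fat diet. HIF1A, NDRG1 and ADM were higher with the inhibitors, ADM by 2.07-fold, NDRG1 by 1.63-fold and HIF1A by 1.61-fold, and in each of the 3 the 4 libraries with inhibitors all lay above the 4 without. EPAS1, CA9, BNIP3, BNIP3L, KDM3A and ANKRD37 did not pass the test. That makes 3 of 9 tested genes called higher and 0 lower (edgeR's quasi-likelihood test, adjusted p under 0.05; DESeq2 gave 0 lower as well, as did limma voom), in a comparison in which 42.3% of all 16012 genes were called, 20.6% higher and 21.7% lower. Groups did not overlap for 3 of 9, against 44.7% of all genes. The share called among these genes is thus near the background. Their median log2 fold change was 0.12, against -0.03 over all genes tested.

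HIF1A (chromosome 14, 61695513 to 61748259, GENCODE 29 on GRCh38; 15 exons) measured 136, 154, 143 and 164 CPM in the high fat libraries without inhibitors and 214, 244, 233 and 269 CPM with them. The 2 groups were separated by a gap, and the lowest library with inhibitors was above the highest without. The log2 fold change was 0.69 (SE 0.20, adjusted p = 0.0132). Antisense transcripts HIF1A-AS1 and HIF1A-AS2 overlap the gene, and their own rows averaged 0.0887% and 1.32% of its counts. The call was lost with the ribosomal share as a covariate (log2 0.67, adjusted p = 0.0631) and without the libraries above 30% ribosomal RNA (log2 0.66, adjusted p = 0.0850), with almost the same size of difference.

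EPAS1 (chromosome 2, 46293667 to 46386703; 16 exons), the other alpha subunit and one that is prominent in endothelium, measured 15.5, 15.4, 16.4 and 11.3 CPM without inhibitors and 16.02, 11.2, 9.83 and 13.2 CPM with them on this diet. The groups overlapped. Its log2 difference was -0.22 (95% interval -0.78 to 0.34, adjusted p = 0.528), so the paralogues did not give the same call, although the difference between the 2 genes was not itself tested.

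ADM (chromosome 11, 10304680 to 10307397; 3 exons), whose promoter with its single GCGTG is printed above, measured 5.23, 4.38, 4.31 and 2.85 CPM in high fat libraries without inhibitors and 9.97, 8.0, 9.10 and 7.70 CPM with them. Every library with inhibitors was above every library without. The log2 fold change was 1.05 (SE 0.21, adjusted p = 0.0011), and 10.6% of all genes had a smaller p. The call held in all 8 fits without 1 replicate and in all 11 other alternatives.

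NDRG1 (chromosome 8, 133237171 to 133302022; 16 exons) measured 111, 114, 112 and 88.6 CPM without inhibitors and 202, 144, 182 and 167 CPM with them. Replicate 4 was the low one of the former group, and the groups did not overlap. The log2 fold change was 0.70 (SE 0.17, adjusted p = 0.0043). With the ribosomal share as a covariate it was 0.59 and the call was lost (adjusted p = 0.0573).

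Neither mitophagy receptor passed the test for the inhibitors on this diet. BNIP3 (chromosome 10, 131966455 to 131982013) measured 50.2, 42.8, 46.5 and 45.8 CPM without inhibitors and 52.1, 44.6, 56.0 and 49.0 CPM with them, a log2 difference of 0.12 (95% interval -0.19 to 0.44). BNIP3L (chromosome 8, 26382898 to 26505636) measured 40.9, 40.3, 39.4 and 43.4 CPM without and 42.7, 47.5, 43.2 and 42.8 CPM with them, a log2 difference of 0.10 (95% interval -0.10 to 0.30). Both pairs of groups overlapped, and the intervals leave out a change as large as those of ADM, NDRG1 or HIF1A. GENCODE 29 names 39 pseudogenes of BNIP3, and reads they share with it could be counted to either, so its level is uncertain.

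KDM3A and ANKRD37 were not called by edgeR on this diet either. KDM3A (chromosome 2, 86440647 to 86492716; 27 exons) measured 49.8, 56.3, 50.9 and 49.6 CPM without inhibitors and 50.7, 54.4, 60.1 and 56.3 CPM with them (log2 0.10, 95% interval -0.17 to 0.37). ANKRD37 (chromosome 4, 185396021 to 185400628; 5 exons) measured 4.33, 3.75, 2.37 and 2.98 CPM without and 4.06, 4.84, 5.32 and 4.56 CPM with them. Its groups overlapped through 1 library of each, and its log2 difference of 0.48 (SE 0.27) did not pass (adjusted p = 0.154). Limma voom called it (log2 0.52, adjusted p = 0.0461), the 1 member it added to the 3 of edgeR in this comparison. Of all 16012 genes, limma voom called 9969 here. UFSP2 overlaps ANKRD37 on the opposite strand with a mean of 1915 counts against 245, and whether the counting used strand is not given in the sources used here.

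On the ketogenic diet none of the 9 genes passed the test for the inhibitors. Of the 3 genes called on the high fat diet, NDRG1 and ADM had log2 differences of 0.35 and 0.42 here, and HIF1A had -0.12. The count of 0 is from edgeR, where 0 of the 9 reached an unadjusted p under 0.05, against 2995 of all 16012 genes. DESeq2 also called 0, and limma voom called 2, NDRG1 (adjusted p = 0.0303) and ADM (adjusted p = 0.0463). Limma voom called 1463 of all 16012 genes here. EdgeR called 1.74% of all genes, so its 0 of 9 is near the background. Groups overlapped for all 9, against 10.3% of all genes whose groups did not. The median log2 difference was 0.01, as over all genes tested (0.01).

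For HIF1A, NDRG1, BNIP3, BNIP3L, ADM, KDM3A and ANKRD37, the 4 ketogenic libraries with inhibitors had the largest coefficient of variation of the 4 groups. HIF1A measured 192, 262, 199 and 184 CPM without inhibitors and 155, 268, 236 and 111 CPM with them. Replicate 4 with inhibitors was the lowest of all 16 libraries and replicate 2 the second highest, and the coefficient of variation was 37.4% there against 8.49 to 17.2% in the other groups. The log2 difference of -0.12 had a 95% interval of -0.55 to 0.31 (adjusted p = 0.799). Without replicate 4 with inhibitors it was 0.07.

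NDRG1 showed a similar spread on this diet. It measured 99.0, 107, 111 and 134 CPM without inhibitors and 189, 133, 159 and 92.7 CPM with them. Replicate 4 with inhibitors lay below all 4 without, replicates 1 and 3 lay above all 4, and the log2 difference of 0.35 had an SE of 0.17 (adjusted p = 0.294). ADM measured 3.85, 4.45, 4.36 and 4.05 CPM without and 3.45, 5.49, 7.42 and 5.97 CPM with them (log2 0.42, SE 0.21, adjusted p = 0.302). For ADM 3 of the 4 libraries with inhibitors lay above all 4 without, and replicate 1 lay below them.

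EPAS1 measured 8.58, 6.43, 12.8 and 14.8 CPM without inhibitors and 19.2, 14.7, 13.3 and 7.81 CPM with them on the ketogenic diet (log2 0.37, 95% interval -0.19 to 0.94). KDM3A measured 56.6, 59.9, 63.0 and 56.8 CPM without and 44.1, 52.4, 71.2 and 41.9 CPM with them (log2 -0.17, 95% interval -0.45 to 0.10). Both had overlapping groups, and for KDM3A replicate 3 with inhibitors was the highest and replicate 4 the lowest of all 16 libraries. BNIP3 measured 44.5, 62.3, 64.6 and 68.9 CPM without and 53.8, 49.3, 81.1 and 58.3 CPM with them, BNIP3L 47.4, 58.4, 50.0 and 54.5 CPM without and 44.8, 52.5, 58.3 and 46.1 CPM with them. ANKRD37 measured 3.14, 5.53, 4.91 and 5.29 CPM without and 2.83, 3.63, 5.64 and 6.98 CPM with them. The log2 differences of these 3 were 0.01, -0.06 and 0.02, and none passed.

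The diets were compared first without inhibitors. BNIP3L was higher on the ketogenic diet by 1.28-fold, and it was the 1 gene of 9 called (edgeR, adjusted p under 0.05), in a comparison in which 13.5% of all genes were called, 7.99% higher and 5.51% lower. Without the 3 libraries above 30% ribosomal RNA, 0 of all 16367 genes tested were called. HIF1A and KDM3A had groups that did not overlap either, both higher on the ketogenic diet, and did not pass. That is 3 of 9 without overlap, against 25.5% of all genes. The median log2 difference of the 9 was 0.36, against -0.02 over all genes tested, and 7 of the 9 were above 0; this comparison and that of the inhibitors on the high fat diet share the same 4 high fat libraries without inhibitors.

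BNIP3L rose from 40.9, 40.3, 39.4 and 43.4 CPM on the high fat diet to 47.4, 58.4, 50.0 and 54.5 CPM on the ketogenic diet. All 4 ketogenic libraries lay above the highest high fat library. The log2 fold change was 0.36 (SE 0.09, adjusted p = 0.0212). The call was lost without high fat replicate 3 (log2 0.35, adjusted p = 0.0659), without ketogenic replicate 2 (log2 0.30, adjusted p = 0.0878), with the ribosomal share as a covariate (log2 0.32, adjusted p = 0.0521) and without the libraries above 30% ribosomal RNA (log2 0.25, adjusted p = 0.370). Both of these replicates were among the libraries above 30%.

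BNIP3, the paralogue of BNIP3L, had a log2 difference of 0.37 of nearly the same size and did not pass (SE 0.15, adjusted p = 0.0982). Its ketogenic libraries at 62.3, 64.6 and 68.9 CPM lay above all 4 high fat libraries at 42.8 to 50.2 CPM, and replicate 1 at 44.5 CPM lay among them. Without that replicate BNIP3 was called (log2 0.49, adjusted p = 0.0493), and so it was in a fit of the 8 libraries compared (log2 0.39, adjusted p = 0.0430).

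HIF1A without inhibitors lay between 136 and 164 CPM on the high fat diet and between 184 and 262 CPM on the ketogenic diet. The groups did not overlap, yet the log2 difference of 0.49 (SE 0.20) missed the threshold (adjusted p = 0.114). In the fit of the 8 libraries compared it passed (log2 0.51, adjusted p = 0.0179), as it did with limma voom (log2 0.46, adjusted p = 0.0042). Limma voom called 6445 of all 16012 genes in this comparison. KDM3A lay between 49.6 and 56.3 CPM on the high fat diet and between 56.6 and 63.0 CPM on the ketogenic diet, a log2 difference of 0.19 (SE 0.13, adjusted p = 0.328).

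The other members were not called by edgeR between diets without inhibitors. EPAS1 had a log2 difference of -0.46 (95% interval -1.03 to 0.10, adjusted p = 0.251) and ANKRD37 one of 0.49 (95% interval -0.07 to 1.05, adjusted p = 0.226), both with overlapping groups. Limma voom called EPAS1 lower on the ketogenic diet (log2 -0.67, adjusted p = 0.0065). NDRG1 had a log2 difference of 0.08 (95% interval -0.28 to 0.44). ADM, which had the largest called change with the inhibitors, had a mean of 4.19 CPM on the high fat and 4.18 CPM on the ketogenic diet (log2 -0.00, 95% interval -0.45 to 0.44).

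With inhibitors, none of the 9 genes differed between the diets by the test. The count of 0 is from edgeR, where 2 of the 9, ADM and CA9, reached an unadjusted p under 0.05, against 2032 of all 16012 genes. DESeq2 called 0 and limma voom 1, BNIP3L (log2 0.29, adjusted p = 0.0290), where limma voom called 1052 of all 16012 genes. EdgeR called only 0.169% of all genes in this comparison. ADM was the 1 gene of 9 whose groups did not overlap, against 7.14% of all genes. It lay between 7.70 and 9.97 CPM on the high fat diet and between 3.45 and 7.42 CPM on the ketogenic diet, a log2 difference of -0.64 (SE 0.21) that did not pass (adjusted p = 0.208). HIF1A had a log2 difference of -0.32 (95% interval -0.74 to 0.11), NDRG1 -0.28 (95% interval -0.64 to 0.08) and BNIP3 0.27 (95% interval -0.05 to 0.58). The median over the 9 was 0.02, as over all genes (0.02).

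**Figure D2:**
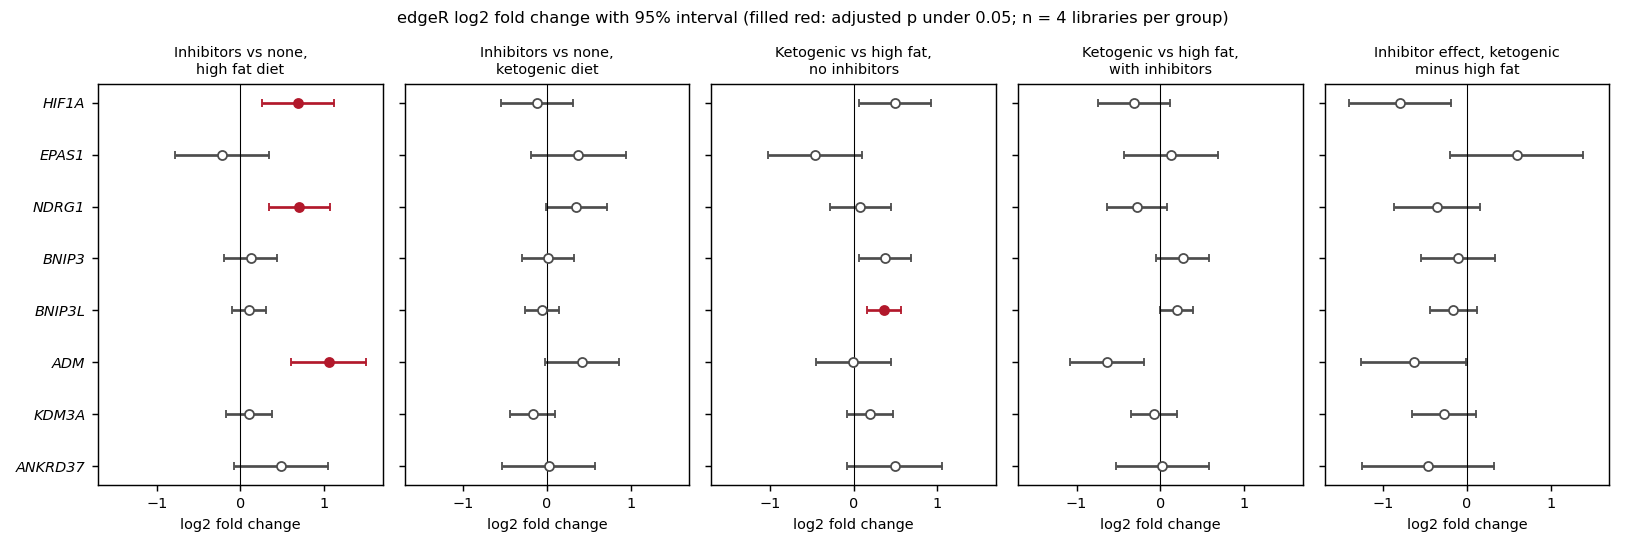
Log2 fold change (horizontal axis) of 8 genes in the 5 comparisons, with points for the edgeR estimate and lines for the 95% interval; filled points passed the test (adjusted p under 0.05) and CA9 is left out because its intervals run off the scale. The filled points are HIF1A, NDRG1 and ADM with the inhibitors on the high fat diet and BNIP3L between the diets without inhibitors.

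The difference of the inhibitor effect between the diets, ketogenic minus high fat, tests directly whether the inhibitors did less on one diet. None of the 9 genes passed edgeR's test, and 9.02% of all genes did. At an unadjusted p under 0.05 were 2 of the 9, HIF1A and ADM, against 4560 of all 16012 genes. HIF1A had the smallest p, with a difference of -0.80 on the log2 scale (SE 0.29, adjusted p = 0.0831), and ADM followed with -0.64 (SE 0.30, adjusted p = 0.170). HIF1A rose in the high fat libraries by 0.69 and stood at -0.12 in the ketogenic ones. It passed with DESeq2 (adjusted p = 0.0438), with limma voom (log2 -0.51, adjusted p = 0.0300) and without ketogenic replicate 2 with inhibitors (log2 -1.01, adjusted p = 0.0309). Limma voom, which called 5272 of all 16012 genes here, further called EPAS1 (log2 0.91, adjusted p = 0.0112). KDM3A passed in edgeR without ketogenic replicate 3 with inhibitors (log2 -0.46, adjusted p = 0.0392). The call for NDRG1 on the high fat diet and its absence on the ketogenic diet are thus not shown to differ (difference -0.36, 95% interval -0.87 to 0.15, adjusted p = 0.349).

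CA9, among the most oxygen-responsive of HIF targets, was barely detected in most libraries. Its estimated counts were 2, 11, 0 and 19 on the high fat diet without inhibitors and 0, 3, 0 and 3 with them, then 2, 82, 40 and 197 on the ketogenic diet without inhibitors and 1, 0, 115 and 7 with them. In CPM the ketogenic libraries reached 4.78 without and 2.53 with inhibitors, and no high fat library passed 0.332. Single libraries carried most of the counts: replicate 4 without inhibitors and replicate 3 with them. The log2 difference between diets was 3.46 without inhibitors (SE 1.55, adjusted p = 0.146) and 4.58 with them (SE 1.86, adjusted p = 0.319), and without ketogenic replicate 3 with inhibitors the latter was 0.81. ARHGEF39 overlaps CA9 (chromosome 9, 35673856 to 35681159; 11 exons) on the opposite strand with a mean of 617 counts against 30.1.

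EGLN3, the oxygen sensor of the set and itself a HIF target, did not pass the filter on low counts and was not among the 9 tested. It had 7, 3, 4 and 0 estimated counts on the high fat diet without inhibitors, 18, 4, 2 and 5 with them, 0, 3, 12 and 1 on the ketogenic diet without inhibitors and 4, 2, 0 and 3 with them. At most 0.327 CPM were reached, in a single library, and a count of 0 allows up to 3 counts, or 0.0459 to 0.0728 CPM in these libraries. In a fit without the filter the adjusted p for EGLN3 was 0.571 to 0.986 over the 5 comparisons, with an SE of 1.12 to 1.62 on the log2 scale, so at this depth differences within that error were not detectable.

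CA9 and BNIP3 shared their 2 highest libraries, ketogenic replicate 4 without inhibitors and ketogenic replicate 3 with inhibitors. The latter was among the 2 highest libraries for CA9, BNIP3, BNIP3L, KDM3A and ANKRD37, 5 of the 10 genes, while replicate 4 of the same group was the lowest for HIF1A and KDM3A and the highest for ANKRD37. Over the 16 libraries the Pearson correlation of log2 CPM was 0.72 for BNIP3 with BNIP3L, 0.70 for CA9 with BNIP3, 0.65 for HIF1A with KDM3A and 0.63 for NDRG1 with ADM. These values describe libraries that share groups, scaling and depth. EPAS1 was least like the others, with 0.46 for NDRG1 as its closest member.

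**Figure D3:**
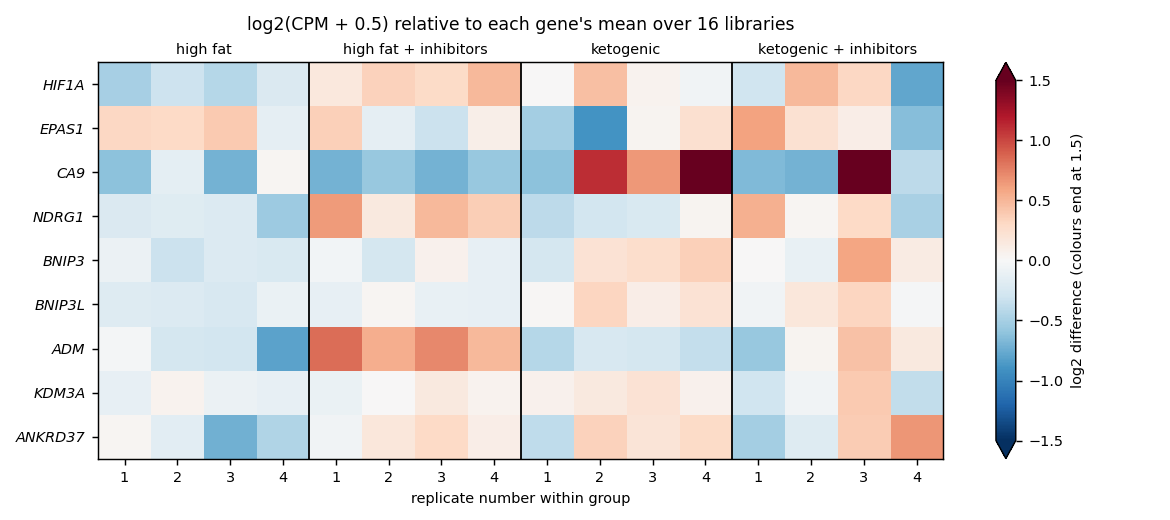
Log2 of CPM plus 0.5 for the 9 tested genes (rows) in the 16 libraries (columns, by group), as the difference from each gene's mean over the libraries; the colour scale ends at 1.5 in either direction. The high fat libraries with inhibitors share high HIF1A, NDRG1 and ADM, and within the ketogenic group with inhibitors the libraries differ from one another.

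Of all genes tested, the ones whose log2 CPM followed a member most closely were mostly not members of its pathway lists. HIF1A was closest to MTPN and LUZP6 (r = 0.95 for both, which have identical counts in the table), EPAS1 to GPR37 (r = 0.92) and ZNF441 (r = 0.90), and NDRG1 to PRKAR1A (r = 0.93), a regulatory subunit of protein kinase A, and GRAMD1C (r = 0.89). BNIP3 and CA9 had ENO2, the neuronal enolase and a glycolytic HIF target, in common among their closest 2 genes (r = 0.83 and 0.80), beside HMGN4 (r = 0.75) and C3orf67 (r = 0.81). BNIP3L was closest to PFN2 (r = 0.88) and AFAP1L2 (r = 0.82), ADM to PAFAH1B1 and GHR, the growth hormone receptor (r = 0.88 for both), KDM3A to KCNQ5 (r = 0.89) and DCAF7 (r = 0.86), and ANKRD37 to KCNE5 (r = 0.92) and PLB1 (r = 0.85). All are over the 16 libraries and are a description of likeness only.

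The machinery that senses oxygen and partners the alpha subunits was examined as a list of 14 genes, 13 of them tested. With the inhibitors on the high fat diet 6 rose and 1 fell (42.3% of all genes were called there), with a median log2 change of 0.39 against -0.03 over all genes. EGLN1, the main prolyl hydroxylase, rose from 62.0 to 91.6 CPM (log2 0.56, SE 0.09), and CUL2 and RBX1, scaffold and ring finger subunits of the VHL ligase, rose by 0.59 and 0.59 on the log2 scale. The 1 that fell was VHL, the substrate receptor of the ligase (log2 -0.48), named here after its value was seen. Without the libraries above 30% ribosomal RNA 4 rose and 1 fell. On the ketogenic diet the inhibitors gave 0 calls (DESeq2 0, limma voom 1). At an unadjusted p under 0.05 there were 3, against 2995 of all 16012 genes. Between diets without inhibitors, where 13.5% of all genes were called, RBX1 rose (log2 0.45) and VHL fell by 0.44 on the log2 scale. RBX1 lost its call in 5 of the 8 fits without 1 replicate (adjusted p up to 0.103). VHL lost its call between diets with library size alone (log2 -0.27, adjusted p = 0.316). Without the libraries above 30% ribosomal RNA it was not called either (log2 -0.48, adjusted p = 0.131). By edgeR, VHL was also the 1 gene of this list whose inhibitor effect differed between the diets (log2 0.67, SE 0.15, adjusted p = 0.0174), where 9.02% of all genes were called. Without the libraries above 30% ribosomal RNA VHL did not pass (adjusted p = 0.103), and neither did any other gene. Nor did VHL pass there with the ribosomal share as a covariate (adjusted p = 0.0732) or with library size alone (adjusted p = 0.132). For the difference of effects DESeq2, like edgeR, gave 1 higher and 0 lower in this list, and limma voom 2 higher and 5 lower.

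Other HIF targets outside glycolysis, 30 genes with 28 tested, had calls in both directions. With the inhibitors on the high fat diet 5 rose and 7 fell, a share near the 42.3% of all genes called, with a median of -0.15. STC1, a secreted glycoprotein hormone, rose from 21.2 to 120.3 CPM (log2 2.50, SE 0.43), GBE1, the glycogen branching enzyme, rose from 36.5 to 67.6 CPM (log2 0.89, SE 0.09), and SPAG4 fell from 10.7 to 3.33 CPM (log2 -1.68, SE 0.35). Without the libraries above 30% ribosomal RNA 2 rose and 3 fell. On the ketogenic diet 0 rose and 2 fell with the inhibitors, where 1.74% of all genes were called. The 2 were PLOD1 (log2 -0.59) and P4HA1 (log2 -0.63), both collagen-modifying hydroxylases. P4HA1 lost its call without any 1 of the 4 libraries without inhibitors and without replicate 4 with them (adjusted p up to 0.0663). PLOD1 lost its call in a fit of only the groups compared (adjusted p = 0.0647) and with library size alone (log2 -0.32, adjusted p = 0.190). With the ribosomal share as a covariate PLOD1 had an adjusted p of 0.628, and 0 of all genes were called. P4HA1 was not called in any of these fits either (adjusted p = 0.142, 0.179 and 0.664). Between diets without inhibitors 6 rose and 2 fell, where 7.99% of all genes were called higher and 5.51% lower. Among them were PLOD1 (log2 0.48), GBE1 (log2 0.48) and WSB1 (log2 -0.49). Without the libraries above 30% ribosomal RNA 0 of the list were called in either direction. By edgeR the inhibitor effect differed between diets for GBE1 (log2 -0.77) and WSB1 (log2 0.54), where 9.02% of all genes were called. WSB1 lost its call in 12 of the 16 fits without 1 replicate (adjusted p up to 0.0979). Neither gene passed without the libraries above 30% ribosomal RNA (adjusted p = 0.0684 and 0.162), where 0 of all genes were called. With library size alone neither passed either (adjusted p = 0.0707 and 0.282).

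The glycolytic HIF targets, 21 genes and all tested, were set beside the members for comparison. With the inhibitors on the high fat diet 10 rose and 3 fell (median 0.27; 42.3% of all genes called), among them SLC2A1, the glucose transporter GLUT1 (log2 0.98), PGAM1 (log2 1.30) and PKM (log2 1.4). Between diets without inhibitors 11 rose and 0 fell (median 0.36), where 7.99% of all genes were called higher and 5.51% lower. DESeq2 and limma voom also called 0 lower. Without the libraries above 30% ribosomal RNA 0 of the list were called in either direction, as 0 of all genes were. By edgeR the inhibitor effect was lower on the ketogenic diet for 5 and higher for 0, where 9.02% of all genes were called (DESeq2 8 and 0, limma voom 12 and 2). PKM stood at -1.20, PGAM1 at -1.02 and SLC2A1 at -0.68 on the log2 scale. All 5 calls were lost without the libraries above 30% ribosomal RNA, and those 3 genes also lost theirs with the ribosomal covariate (adjusted p = 0.113, 0.117 and 0.0723). The median of the glycolytic list in that test was -0.44 and that of the 9 members -0.27, against 0.03 over all genes; the difference between the lists was not tested.

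**Figure D4:**
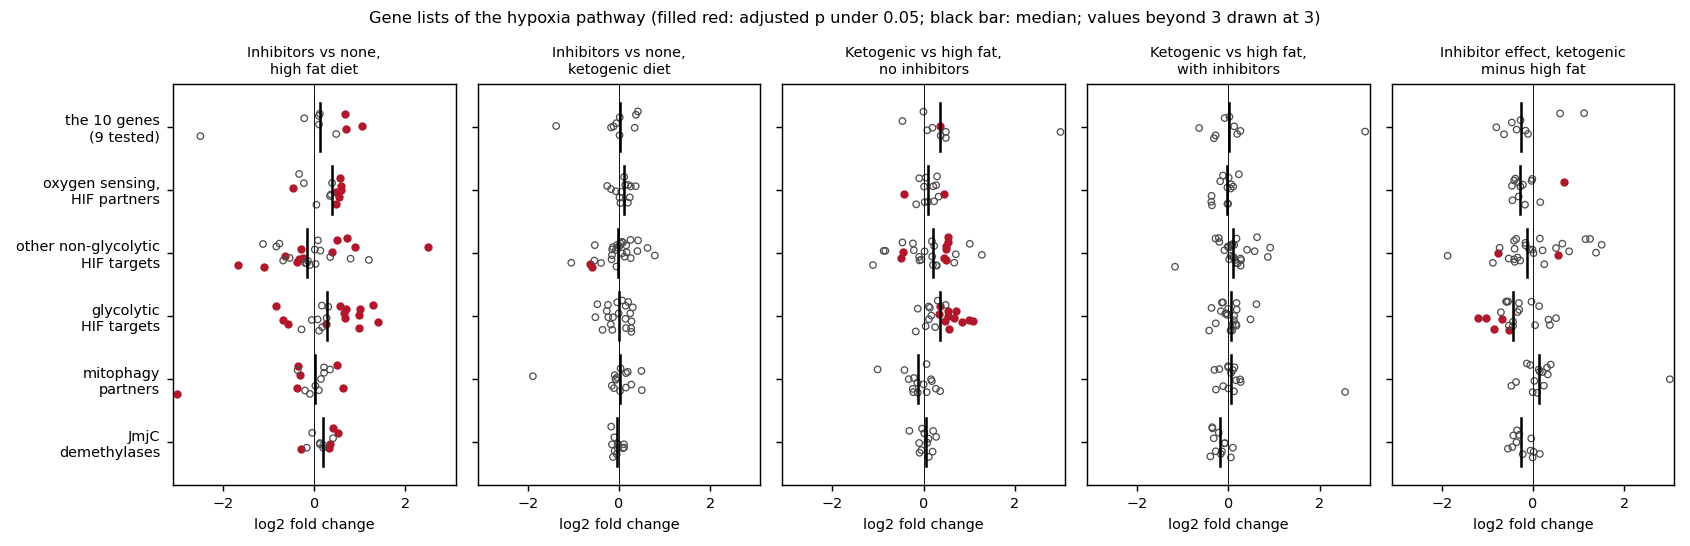
Log2 fold change (horizontal axis) of the tested genes of the 9 members and of 5 pathway lists (rows) in the 5 comparisons (one panel each); points are genes, filled red where they passed the test, black bars are list medians, and values beyond 3 are drawn at 3. With the inhibitors on the high fat diet called genes of the other HIF targets lie on both sides of 0 (5 higher, 7 lower), and between diets without inhibitors the 11 called glycolytic targets all lie above 0.

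Mitophagy partners of BNIP3 and BNIP3L, 15 genes and all tested, had edgeR calls in both directions with the inhibitors on the high fat diet, 2 higher and 4 lower, a share near the 42.3% of all genes called. Limma voom called 6 higher and 6 lower, and without the libraries above 30% ribosomal RNA edgeR called 0 higher and 4 lower. FUNDC1, another mitophagy receptor, rose from 8.02 to 12.4 CPM (log2 0.63, SE 0.15; not called without the libraries above 30% ribosomal RNA, adjusted p = 0.0793), and the autophagy adaptor CALCOCO2 fell from 111 to 85.1 CPM (log2 -0.38, SE 0.08), a call that was lost when counts were scaled by library size alone (log2 -0.11). The median was 0.02, so the list as a whole stood near all genes (-0.03), as did BNIP3 and BNIP3L themselves on this diet. In the comparison between diets without inhibitors, in which BNIP3L was called, 0 partners were called by edgeR. At an unadjusted p under 0.05 there were 5, against 4909 of all 16012 genes. DESeq2 called 1 lower, and limma voom 2 higher and 5 lower.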

How the data were processed

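The authors deposited RSEM expected counts (estimated counts) per gene symbol for 16 libraries, not scaled for depth. Bowtie2 2.1.0, RSEM 1.2.15 and build hg38 are named, without role or order, per the submitters' processing notes. Not given in the sources used here are the annotation, whether strand was used, and whether reads of mouse origin were removed, and such reads could add to a count. Of the values, 13.0% were not whole and all were rounded. Genes were filtered by filterByExpr with the 4 groups (16012 left), and edgeR 4.0.16 (R 4.3.3) fitted 1 model of 4 group means to all 16 libraries, with TMM factors and robust estimation of quasi-likelihood dispersion. Tests were two-sided over 5 comparisons, with Benjamini-Hochberg adjustment over all genes tested and a threshold of 0.05. CPM levels use library sizes multiplied by TMM factors. Fold changes are log2 values with their SE, over 4 libraries per group.

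Alternatives were DESeq2 1.42.0, limma voom 3.58.1 with quality weights, RLE factors, library size alone, ribosomal RNA rows set aside, other filters, only the groups compared, a replicate block, the ribosomal share as a covariate, no library above 30% ribosomal RNA, and each replicate left out. Members and lists were chosen with earlier results of these data known. All 10 members were named, and for each of 8 lists up to 3 called genes with the smallest p per comparison, and for each member the 2 genes with the highest Pearson correlation; 1 gene that this rule took is not reported here. All 194 list entries were in the table, 3 of them under older symbols. The fit was tested on simulated data after it had been run on the real counts. Within every group, library pairs differed by a chi-square per gene of 35.4 or more, so none was counted as a duplicate. Promoters are RefSeq's.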

Additional observations from a re-analysis of the deposited data

Results flagged for a closer look

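Of 36 sets of 4 libraries (9 genes in 4 groups), 2 had a library set apart from the others by a gap that is large against the group's range, and chance alone sets apart about 1 in 20 such sets. NDRG1 on the high fat diet without inhibitors was 88.6 CPM in replicate 4 and 111 to 114 CPM in the other libraries. BNIP3L on the high fat diet with inhibitors was 47.5 CPM in replicate 2 and 42.7 to 43.2 CPM in the other libraries.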

How the results depend on the processing

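Of 432 log2 fold changes of single genes refitted without 1 replicate, 408 kept their direction and side of the threshold, 2 lost and 3 gained a call and 19 changed sign; of 479 under the other alternatives the numbers were 432, 5, 11 and 31. For the inhibitor effect on the high fat diet, genes called among the 9 became 1 (from 3) with the ribosomal share as a covariate and 4 with limma voom, and 2 (from 0) on the ketogenic diet with limma voom. Between diets without inhibitors they became 3 (from 1) with limma voom and with only the groups compared, and 0 with the ribosomal covariate and without the libraries above 30% ribosomal RNA; leaving out 1 replicate gave 0 to 2. Between diets with inhibitors limma voom gave 1 (from 0). For the difference of effects DESeq2 gave 1 and limma voom 2 (from 0), and leaving out 1 replicate gave 0 to 1. Replicate numbers were not treated as pairs. Same-numbered libraries correlated by -0.15 to 0.21 in their deviations from the group means. Differently numbered libraries were not set beside them, so these values cannot decide whether the numbers pair libraries. The replicate block left the counts at 3, 0, 1, 0 and 0.

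Over all genes, DESeq2 called 7302, 873, 3151, 345 and 2487 and limma voom 9969, 1463, 6445, 1052 and 5272 in the 5 comparisons, where edgeR called 6771, 279, 2163, 27 and 1444. Only the groups compared gave 7544, 56, 3346 and 0, the ribosomal covariate 4846, 0, 1747, 0 and 30, no library above 30% ribosomal RNA 3858, 53, 0, 3 and 0, and library size alone 6087, 981, 1647, 1 and 238. Leaving out 1 replicate gave 5446 to 6779, 88 to 437, 778 to 2640, 3 to 47 and 407 to 2636. Library size alone moved the median log2 change of all genes to 0.25, 0.28, 0.15 and 0.19 in the first 4 comparisons and the share of calls that were higher from 48.7, 49.1 and 59.2% to 79.8, 93.4 and 91.4% in the first 3. The causes were not tested.

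None of the sign changes below concerned a called difference except that of KDM4C on the high fat diet, at 0.0035 with library size alone. For ADM between diets without inhibitors the log2 value was 0.0023 with DESeq2 and with RLE factors, 0.17 with library size alone, 0.016 with only the groups compared, 0.0026 with the replicate block, 0.0081 with ribosomal rows set aside and 0.0052 without libraries above 30% ribosomal RNA. With library size alone, values for the inhibitors on the ketogenic diet were 0.22 for BNIP3L, 0.18 for HIF1A and 0.11 for KDM3A, EPAS1 on the high fat diet was 0.079, and KDM3A between diets with inhibitors was 0.095. With limma voom, values for the inhibitors on the ketogenic diet were 0.092 for BNIP3L and 0.24 for HIF1A, between diets NDRG1 was -0.043 without inhibitors, ANKRD37 -0.14 and KDM3A 0.056 with them, and BNIP3 in the difference of effects was 0.0068 and CA9 -0.49. With the ribosomal covariate, BNIP3 was -0.13 and KDM3A -0.044 for the inhibitor effect on the high fat diet, ANKRD37 -0.42 and BNIP3 -0.50 on the ketogenic diet, ANKRD37 -0.31, BNIP3 -0.14, CA9 -0.57 and EPAS1 -0.14 between diets with inhibitors, and CA9 -2.85 for the difference of effects. HIF1A for the inhibitors on the ketogenic diet was 0.0060 without libraries above 30% ribosomal RNA. With the replicate block, ANKRD37 between diets with inhibitors was -0.0096 and BNIP3 for the inhibitors on the ketogenic diet -0.00079. Leaving out 1 replicate gave -0.16 to 0.10 for BNIP3, -0.23 to 0.20 for ANKRD37 and -0.32 to 0.072 for HIF1A with the inhibitors on the ketogenic diet, -0.15 to 0.12 for ADM and -0.014 to 0.14 for NDRG1 between diets without inhibitors, -0.22 to 0.21 for ANKRD37, -0.074 to 0.32 for EPAS1 and -0.26 to 0.013 for KDM3A between diets with inhibitors, and -2.66 to 2.42 for CA9 in the difference of effects. CA9 had no value under the filter of at least 1 CPM in 4 libraries and in some fits of only the groups compared, and the difference of effects none in the latter. Depth limits CA9 and EGLN3, and counting intervals would cover counting error only.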

Other observations

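Adrenomedullin needs the receptor CALCRL with a RAMP partner and the amidating enzyme PAM. Of the 7 genes of this list, 4 were tested, and edgeR called 0 in each of the 5 comparisons (0 or 1 at an unadjusted p under 0.05 in each). Carbonic anhydrases and transporters of bicarbonate, protons and lactate had 7 of 10 genes tested, and 1 of them rose with the inhibitors on the high fat diet, SLC16A1, the lactate transporter MCT1 (80.0 to 98.8 CPM, log2 0.30, SE 0.11). That call was lost in 5 of the 8 fits without 1 replicate (adjusted p 0.0528 to 0.0851). It was also lost with the ribosomal share as a covariate (adjusted p = 0.116) and without the libraries above 30% ribosomal RNA (adjusted p = 0.183).

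Demethylases related to KDM3A were all 12 tested, and with the inhibitors on the high fat diet 4 rose and 1 fell by edgeR, a share near the 42.3% of all genes called (DESeq2 5 and 1, limma voom 7 and 1), with a median log2 change of 0.20 against -0.03 over all genes. KDM2A rose from 58.8 to 84.5 CPM (log2 0.52, SE 0.13) and KDM5C from 127 to 160.5 CPM (log2 0.34, SE 0.10), while KDM4C fell by 0.28 on the log2 scale (SE 0.09), a call with no fall when counts were scaled by library size alone. The KDM4C call was also lost when replicate 2 or 3 without inhibitors, or 1 or 2 with them, was left out (adjusted p 0.0567 to 0.0685). With the ribosomal share as a covariate KDM4C (adjusted p = 0.0591) and KDM5C (adjusted p = 0.0907) did not pass. KDM5C was not called without replicate 3 without inhibitors either (adjusted p = 0.0503). Without the libraries above 30% ribosomal RNA, 0 of the 12 rose or fell. For the difference of effects edgeR called 0 of them, and DESeq2 and limma voom called 2 lower each. By edgeR 3 had an unadjusted p under 0.05, against 4560 of all 16012 genes. In the NDRG family beside NDRG1, 3 genes were tested and edgeR called 0 in each comparison (0 or 1 at an unadjusted p under 0.05 in each); DESeq2 and limma voom counts were not made for the lists of adrenomedullin, pH and NDRG genes.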
